A study of Arabidopsis thaliana with 6 samples.

Results

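The genes described here are 45 of the 38194 loci counted in Arabidopsis thaliana seedlings that carry 35S:GR-TCP5. They are 21 expansin genes (EXPA, EXPB and EXLA) and 24 xyloglucan endotransglucosylase/hydrolase (XTH) genes, chosen by gene identifier from the families' known shoot and root members. The choice was made with earlier results of these data known. All 45 were found in the count files. Expansins loosen the contacts between cellulose and matrix polysaccharides when the cell wall is acidified, which lets a wall under turgor extend. XTH enzymes cut xyloglucan, the main hemicellulose that lies between cellulose microfibrils, and either join the cut end to another chain or, in some members, hydrolyse it. Both families have members used in growing leaves and others used in root hairs or emerging lateral roots.

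The treated plants were 35S:GR-TCP5 seedlings, 12 days old, treated for 4 h with a solution labelled as 10 mM dexamethasone (DEX), and the comparison plants were the same line treated with a mock solution without it. Both solutions held 0.1% ethanol and 0.015% silwet, and plants grew at 22 °C with 14 h of light and 10 h of dark. TCP5, a leaf-growth regulator of the CIN class of TCP transcription factors, is made in this line as a fusion with a steroid-responsive glucocorticoid receptor (GR) domain under the constitutive 35S promoter, so that DEX moves it into the nucleus of any cell that makes it. Seedlings lacking the fusion were not analysed here, so responses to dexamethasone itself and to TCP5 cannot be told apart. The labels do not say whether plants of a library were pooled, whether replicates were separate cultures, or how many lines were used, so each p-value reflects only how far these particular libraries scatter, which may be technical.

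Each group had 3 libraries, with 33428836 to 76859163 exon counts each. Library names carry 1 date-like code and lane 7 for replicate 3 of both groups, and an earlier code and lane 1 for replicates 1 and 2 of both. These sets are called the second and the first run, although the labels do not say which step the code dates. The runs differed widely: 12174 of 21934 genes tested (55.5%) passed between them. TCP5 itself was at 233, 263 and 964 CPM (counts scaled to library size) in DEX replicates 1, 2 and 3, against 323, 296 and 1177 CPM in mock (log2 fold change −0.31 ± 0.10, edgeR adjusted p = 0.152). Green tissue was present throughout, since 8 of 8 listed shoot genes, among them RBCS1A and CAB1, exceeded 1 CPM in every library. Root marker RNA was not even. The summed level of 17 root marker genes was 79.5 CPM in DEX replicate 3 and 171 CPM in mock replicate 3, against 1.72 to 2.71 CPM in the first-run libraries, where 7 to 12 of the 17 were at 0. From these counts, fewer cells of a type and less RNA per cell cannot be told apart.

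Levels across genes are given as CPM per kilobase of exon (RPKM), so that genes of different length can be set side by side. XTH24, known as MERI5, was the most abundant of the 45 at 477 ± 201 RPKM with DEX and 555 ± 192 RPKM with mock (SD, n = 3), and it held between 34.5% and 50.6% of the summed XTH level in each library. The touch-induced gene XTH22, known as TCH4, followed at 158 ± 193 RPKM with DEX and 162 ± 202 RPKM with mock. Its SD exceeded its mean, with the second run far above the first. XTH4 was at 89.6 ± 65.1 RPKM with DEX and 152 ± 114 RPKM with mock, EXPA1 at 74.3 ± 5.75 RPKM with DEX and 87.0 ± 6.10 RPKM with mock, and XTH27 at 90.2 ± 6.86 RPKM with DEX and 81.8 ± 9.38 RPKM with mock. The ranges of these 4 genes overlapped each other over the 6 libraries, so their order below XTH24 is not fixed. At the other end, EXPA2, a gene of germinating seeds, EXPA17, EXPB1 and XTH25 were under 1 RPKM on average in mock libraries.

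**Figure D1:**
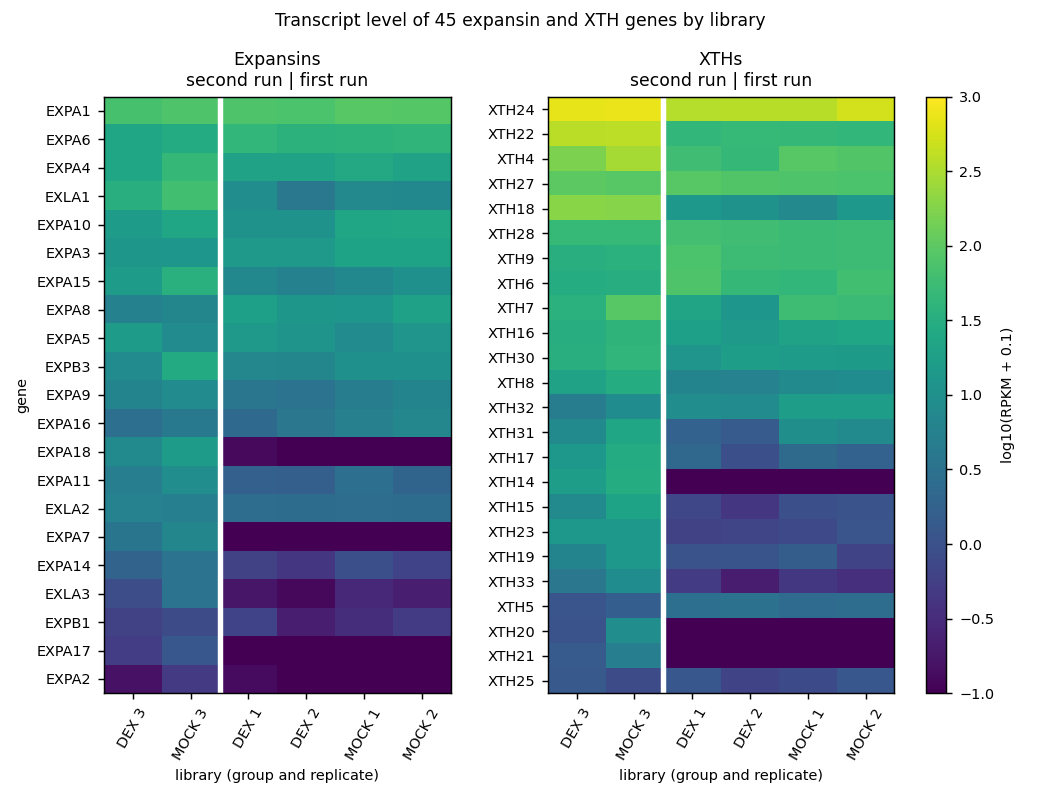
Level of each expansin gene (left) and XTH gene (right) in each library, as log10(RPKM + 0.1), with DEX libraries left of mock libraries in each run and a white bar between runs. Rows run from the highest to the lowest mean. XTH24 is the brightest row in all 6 libraries, and EXPA7, EXPA18, XTH14, XTH20 and XTH21 are visible in the second run and dark in the first.

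A gene was counted as seen in a run when its mean over that run's libraries was at least 1 CPM on raw exon totals. By that measure 32 of the 45 were seen in both runs, 10 in the second run only and 3 (EXPA2, EXPA17 and EXPB1) in neither. The 10 were EXPA7, EXPA14, EXPA18, EXLA3, XTH14, XTH15, XTH20, XTH21, XTH23 and XTH33. After the filter on low counts 38 genes were tested, 17 expansins and 21 XTHs. All 32 genes seen in both runs were among them, with 5 of the 10 seen in the second run only and EXPB1.

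DEX against mock, compared within runs, gave falls and no rises among these genes. Since the list was chosen with earlier results of these data known, the shares below only describe it. Of the 38 tested, 7 fell (18.4%) and 0 rose at an adjusted p under 0.05 over all genes (edgeR quasi-likelihood test), while 3.58% of all 21934 genes tested fell and 1.09% rose (4.67% in all). They were 6 of 21 XTH genes, XTH4, XTH7, XTH8, XTH15, XTH31 and XTH32, and 1 of 17 expansins, EXPA10. At an unadjusted p under 0.05 18 of the 38 were lower and 1, EXPA5, was higher, against 11.8% and 7.19% of all genes tested. DESeq2 called 0 rises and 14 falls, against falls in 6.83% of all genes it tested. Limma-voom called 0 rises and 9 falls, against 4.59%. The median log2 fold change was −0.42 over the 38 genes, −0.49 for expansins and −0.37 for XTHs, against 0.00 over all genes tested. Log2 fold changes are DEX over mock throughout, with their standard error (SE).

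The largest fall was that of XTH31 (AT3G44990), an enzyme reported to act mainly as a xyloglucan hydrolase and studied in the root wall. XTH31 was at 2.40, 1.85 and 10.9 CPM in DEX replicates 1, 2 and 3, against 13.8, 10.7 and 30.9 CPM in mock. Within each run both groups were fully apart, and only DEX replicate 3 reached the range of the first-run mock libraries. Its log2 fold change was −2.16 ± 0.25 (edgeR adjusted p = 0.00889). XTH32 (AT2G36870), its closest relative among the XTHs, was at 12.3, 11.5 and 6.31 CPM with DEX, against 23.6, 23.3 and 11.7 CPM with mock. Every DEX library was well below its own run's mock libraries, with a fold change of 0.518 (log2 −0.95 ± 0.09, edgeR adjusted p = 0.00302). XTH31 was higher in the second run than in the first, and XTH32 was lower.

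XTH7 (AT4G37800) was at 27.4, 16.4 and 46.4 CPM in DEX replicates 1, 2 and 3, against 72.4, 69.3 and 117 CPM in mock. The groups did not overlap over all 6 libraries. Its log2 fold change was −1.57 ± 0.20 (edgeR adjusted p = 0.0124). XTH4 (AT2G06850), which has a role in stem and leaf wall growth, was at 91.7, 70.1 and 254 CPM with DEX, against 141, 126 and 439.6 CPM with mock (log2 fold change −0.75 ± 0.12, edgeR adjusted p = 0.0157). XTH8 (AT1G11545) was at 7.75, 7.14 and 24.4 CPM with DEX, against 9.89, 10.7 and 36.7 CPM with mock (−0.51 ± 0.10, edgeR adjusted p = 0.0253). For both genes DEX lay below mock in each run, and the second-run DEX library lay above the first-run mock libraries. XTH15 (AT4G14130), a gene induced by shade, was at 0.74, 0.39 and 9.47 CPM with DEX, against 1.04, 1.15 and 25.3 CPM with mock (−1.17 ± 0.23, edgeR adjusted p = 0.0278). Most of its counts thus came from the second-run pair, where root markers were also lower with DEX. Their part in the result was not tested. XTH15 shares 382 exon bases with AT4G14120 on the other strand, which was counted at 77.6% of the XTH15 total and had a log2 fold change of −0.07.

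EXPA10 (AT1G26770), an expansin of growing leaves and petioles, was the only expansin to fall. It was at 17.0, 17.6 and 23.6 CPM with DEX, against 34.6, 38.3 and 35.0 CPM with mock. The groups did not overlap, and the second-run DEX library was the nearest to mock. Its log2 fold change was −0.91 ± 0.12 (edgeR adjusted p = 0.00802).

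**Figure D2:**
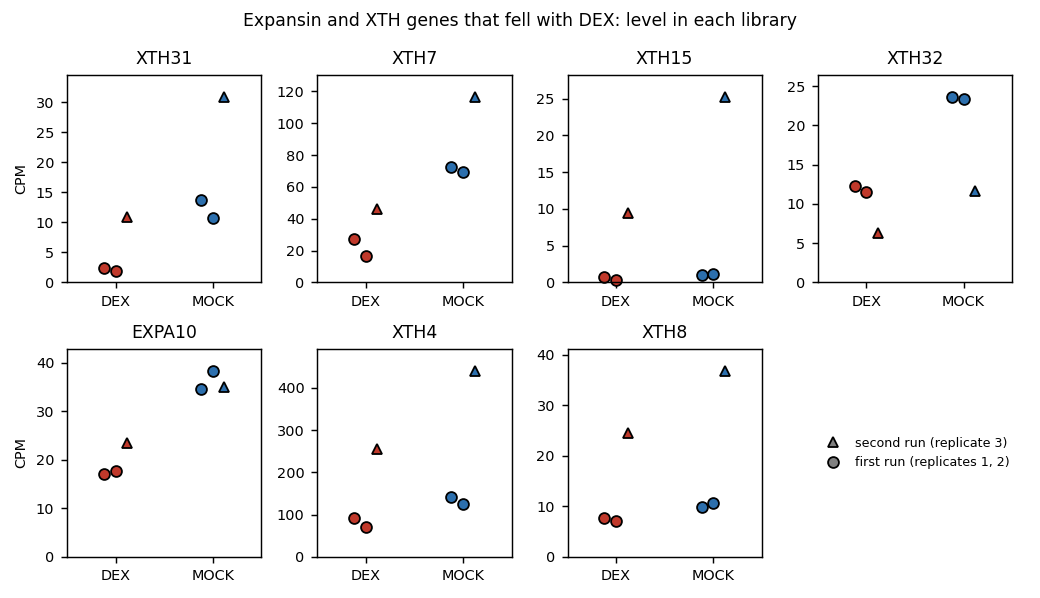
CPM of the 7 genes that fell, in DEX libraries (left, red) and mock libraries (right, blue), with triangles for replicate 3 of the second run and circles for replicates 1 and 2 of the first. Each point is 1 library and axes start at 0. DEX lies below mock within each run in all 7 panels, and in XTH15 both circles of each group lie near 0.

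The 7 falls differed in how far they rested on single libraries. XTH31 and XTH32 passed without any 1 of the 6 libraries (edgeR adjusted p from 0.00720 to 0.0420 and from 0.00602 to 0.0297). EXPA10 did not pass without DEX replicate 2 (adjusted p = 0.0529), nor XTH7 without mock replicate 2 (0.0543). XTH4, XTH8 and XTH15 passed without DEX replicate 1 but not without any other single library. With the replicate number as a block in place of run, 5 of the 38 genes fell, against 2.11% of all genes tested (2.60% passed in either direction). All 5 are among the 7, and XTH8 and XTH15 did not (edgeR adjusted p = 0.0612 and 0.0513). The first run alone gave 6 falls among the 38, against 2.43% of all genes tested. These were EXPA10, XTH7, XTH31 and XTH32 together with EXPA3 (log2 fold change −0.49, edgeR adjusted p = 0.0461) and EXPB3 (−0.54, 0.0473).

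The 250 bases before the annotated start are shown for the 4 fallen genes whose exonic length in the files equals that in the RefSeq annotation of TAIR10.1, and for XTH18, the XTH with the highest second-run level among those that hold the motif GGNCCC. That motif is the core of sites bound by TCP proteins. The files name no genome build and hold no coordinates, so the positions are those of TAIR10.1. Lower case is used throughout, and capitals mark the letters of the 6 motifs searched on both strands. These were GGNCCC, the longer TCP form GTGGNCCC that contains it, the G-box, written CACGTG, the auxin response element, written TGTCTC, a form of the brassinosteroid response element, written CGTGCG, and the TATA box, written TATAAA.
XTH31, chr3:16448845-16449094, minus strand: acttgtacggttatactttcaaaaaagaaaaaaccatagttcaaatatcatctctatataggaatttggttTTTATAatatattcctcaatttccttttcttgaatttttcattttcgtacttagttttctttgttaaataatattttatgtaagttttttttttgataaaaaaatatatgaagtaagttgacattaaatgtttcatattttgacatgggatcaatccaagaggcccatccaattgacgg
XTH7, chr4:17777446-17777695, minus strand: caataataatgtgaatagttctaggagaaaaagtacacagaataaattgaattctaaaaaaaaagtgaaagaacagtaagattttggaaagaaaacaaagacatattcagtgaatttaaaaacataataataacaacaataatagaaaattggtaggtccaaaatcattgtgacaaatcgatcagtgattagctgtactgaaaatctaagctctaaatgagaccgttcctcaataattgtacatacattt
XTH15, chr4:8138393-8138642, minus strand: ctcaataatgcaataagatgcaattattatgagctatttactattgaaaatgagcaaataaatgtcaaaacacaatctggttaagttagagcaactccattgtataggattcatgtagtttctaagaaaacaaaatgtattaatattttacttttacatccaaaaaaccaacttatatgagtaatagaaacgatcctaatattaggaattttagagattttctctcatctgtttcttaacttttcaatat
XTH8, chr1:3880392-3880641, minus strand: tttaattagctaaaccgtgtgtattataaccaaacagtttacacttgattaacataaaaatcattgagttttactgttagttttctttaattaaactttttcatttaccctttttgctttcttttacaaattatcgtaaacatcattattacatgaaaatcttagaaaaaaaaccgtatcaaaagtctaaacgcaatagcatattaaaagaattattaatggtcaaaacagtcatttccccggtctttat
XTH18, chr4:14827212-14827461, minus strand: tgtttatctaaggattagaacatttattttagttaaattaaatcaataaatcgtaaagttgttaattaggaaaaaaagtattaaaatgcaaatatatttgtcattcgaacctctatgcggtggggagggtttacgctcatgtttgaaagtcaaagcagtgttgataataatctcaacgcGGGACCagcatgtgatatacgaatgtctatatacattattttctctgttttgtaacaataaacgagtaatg
The capitals in XTH31 are TATAAA on the other strand and those in XTH18 are GGNCCC on the other strand. GGNCCC was in 7 of the 45 windows (15.6%), against 7.35% of the 27443 windows of protein-coding genes. The 7 were those of EXPA1, EXPA2, EXPB3, XTH5, XTH17, XTH18 and XTH19. XTH17 and XTH18 have the same letters from the motif at −71 to the annotated start, and XTH19 lies next to XTH18. The 7 windows were therefore not all independent. GGNCCC was in none of the windows of the 7 fallen genes and in 7.30% of those of all genes that fell. For EXPA1, EXPB3 and XTH17, and for the fallen EXPA10, XTH4 and XTH32, the exonic length differs from that in the files. The start used there may differ too. GTGGNCCC and CACGTG were in none of the 45 windows, against 0.670% and 6.49% of all windows. TGTCTC was in 5 (11.1%), among them EXPA10, against 10.9%. CGTGCG was in 3 (6.67%), against 1.57%, and TATAAA in 24 (53.3%), against 47.3%. A match is a description of the letters in the window only.

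Several expansins were lower with DEX in most libraries without passing over all genes. EXPA16 was at 2.79, 4.63 and 3.52 CPM with DEX, against 6.87, 8.65 and 5.06 CPM with mock, with no overlap of the groups (log2 fold change −0.90 ± 0.23, edgeR adjusted p = 0.0704). EXPB3, a beta-expansin, was at 12.4, 12.1 and 15.1 CPM with DEX, against 17.9, 17.9 and 50.1 CPM with mock. It had no overlap either, but its mock level in the second run was far above the rest (−0.94 ± 0.24, adjusted p = 0.103). EXPA9 was at 4.98, 4.36 and 8.59 CPM with DEX, against 6.34, 8.61 and 11.6 CPM with mock (−0.60 ± 0.16, adjusted p = 0.0733). EXPA11 was at 2.05, 1.97 and 6.57 CPM with DEX, against 3.69, 2.40 and 12.0 CPM with mock (−0.69 ± 0.20, adjusted p = 0.0945). EXPA15 was at 10.4, 8.14 and 23.2 CPM with DEX, against 10.6, 14.3 and 49.5 CPM with mock (−0.65 ± 0.19, adjusted p = 0.122). In all of these DEX lay below mock within each run, and by little in EXPA15 replicate 1. EXLA3, an expansin-like gene with no known wall-loosening activity, was at 0.10, 0.03 and 1.07 CPM with DEX, against 0.25, 0.16 and 4.35 CPM with mock (−1.82 ± 0.47, adjusted p = 0.0727). EXPA14, a lateral root expansin, was at 0.75, 0.51 and 2.66 CPM with DEX, against 1.30, 0.84 and 4.90 CPM with mock (−0.80 ± 0.28, adjusted p = 0.167). EXLA3 and EXPA14 are 2 of the 10 genes seen in the second run only. EXPA1 was at 116.9, 108 and 100.2 CPM with DEX, against 134, 129 and 117.03 CPM with mock. Every DEX library was below every mock library, but the nearest values almost met (−0.23 ± 0.09, adjusted p = 0.194). EXPA5, whose activity is tied to brassinosteroid-driven growth, was at 21.0, 16.5 and 22.4 CPM with DEX, against 11.8, 17.4 and 12.1 CPM with mock. Its log2 fold change of 0.53 ± 0.19 was the highest of the 38 and did not pass (adjusted p = 0.199).

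Among the other XTH genes, XTH16 was at 21.6, 16.9 and 37.8 CPM with DEX, against 24.7, 27.4 and 48.5 CPM with mock (−0.41 ± 0.11, edgeR adjusted p = 0.0853). Of the 5 genes highest in mock, XTH4 passed (above) and XTH24, XTH22, XTH27 and EXPA1 did not. XTH24 was at 429, 444 and 858 CPM with DEX, against 455, 642 and 917 CPM with mock (−0.25 ± 0.14, adjusted p = 0.407). XTH27 was at 139, 129 and 150.1 CPM with DEX, against 122, 114 and 142 CPM with mock (0.14 ± 0.09, adjusted p = 0.443). XTH22 was at 70.5, 76.9 and 605 CPM with DEX, against 73.2, 71.5 and 629.7 CPM with mock, and its log2 fold change was −0.0017 ± 0.092 (adjusted p = 0.994). That sign turned under most other settings. Summed over the 24 XTH genes, the level in DEX libraries was 0.846 of that in mock libraries in the second run and 0.845 in the first. Summed over the 21 expansins it was 0.665 in the second run and 0.836 in the first. Each second-run ratio is 1 library against 1. The first-run XTH sums were 855 and 782 RPKM with DEX, against 887 and 1049 RPKM with mock. XTH24, which did not pass, made up 34.5% to 50.6% of the XTH sum in each library.

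Over all 6 libraries DEX lay wholly below mock in 5 of the 38 genes (13.2%), EXPA1, EXPA10, EXPA16, EXPB3 and XTH7, and wholly above in 0, against 4.65% and 3.53% of all genes tested. Within the first run DEX lay wholly below mock in 20 of the 38 (52.6%) and wholly above in 4 (10.5%), against 24.4% and 21.4% of all genes tested. In the second run DEX replicate 3 was below mock replicate 3 in 30 of the 38, against 49.9% of all genes tested. DEX was below mock in every library comparison within both runs for 18 of the 38, the 7 that passed included, against 17.8% of all genes tested.

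**Figure D3:**
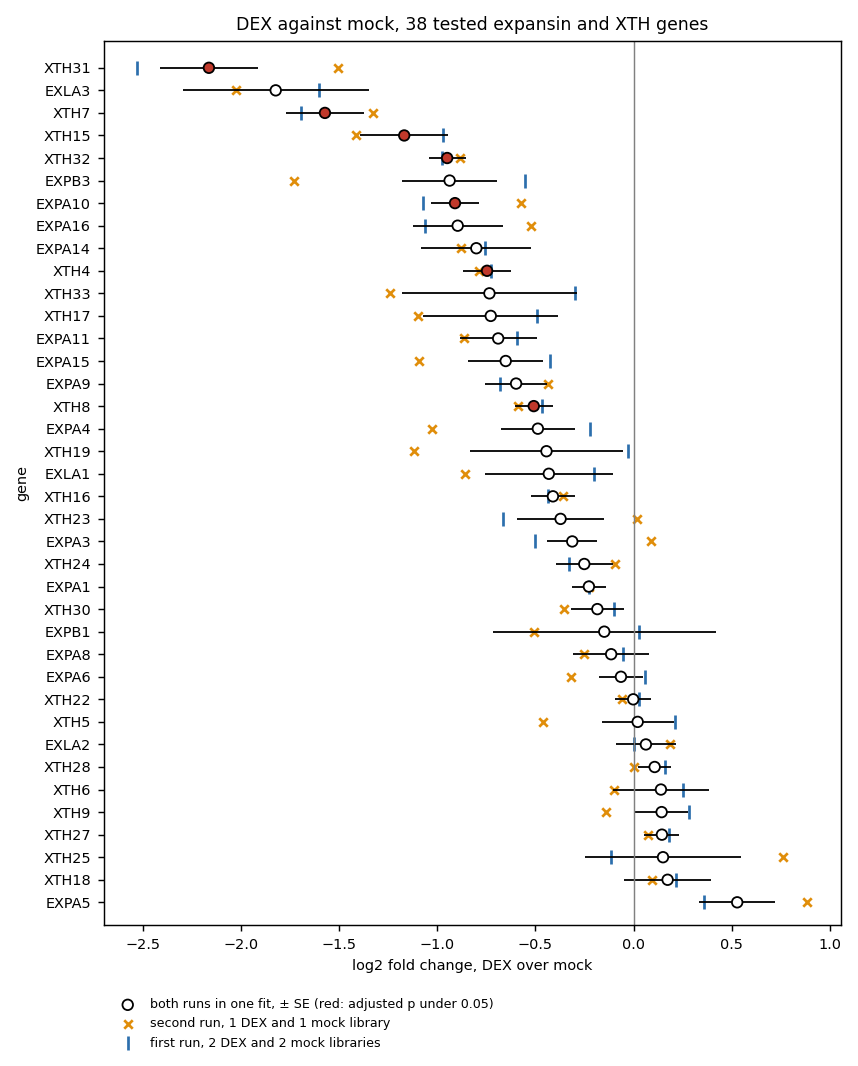
Log2 fold change of DEX over mock for the 38 tested genes, with circles and SE bars from the fit over both runs, red where the gene passed, orange crosses for the second run and blue ticks for the first. Of the 38 circles 29 lie left of 0. For XTH31, XTH7, XTH32 and EXPA10 the cross and the tick both lie left of −0.5. The same holds for some other genes, among them EXPB3, which did not pass.

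Whether the response differed between runs was tested as a run by treatment term. None of the 38 genes passed, nor did any of 21934 genes (0%), with 5 and 1436 at an unadjusted p under 0.05 (edgeR). DESeq2 called 47 genes, 1 of them EXPB3 (adjusted p = 0.0203), whose log2 fold change was −1.73 in the second run and −0.55 in the first. The second run has 1 library in each group, so this test rests on the spread within the first run. Of the 38 genes, 24 had a negative log2 fold change in both runs, 5 a positive one in both, and 9 one of each. The matching shares over all genes were not counted.

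Intron counts, which were not used above, come from the same 6 libraries and could be tested for 24 of the 45 genes. Such reads can come from unspliced transcripts, but their origin was not tested. XTH7 fell here too, with 12, 6 and 0 intron counts in DEX replicates 1, 2 and 3, against 45, 70 and 16 in mock (log2 fold change −2.74 ± 0.53, edgeR adjusted p = 0.0142). It was the only one of the 24 to pass (4.17%), while 0.616% of 12989 genes tested fell and 0.323% rose (0.939% in all). It did not pass without DEX replicate 2 or without mock replicate 2. XTH31 had 0, 1 and 4 intron counts with DEX, against 26, 26 and 10 with mock (−3.35 ± 0.81, adjusted p = 0.0649). XTH32 had 13, 13 and 1, against 34, 58 and 8 (−1.73 ± 0.48, 0.124). XTH4 had 259, 202 and 214, against 514, 351 and 319 (−0.66 ± 0.18, 0.122). The sign was that of the exon fold change in 22 of 24 genes, a share that was not counted over all genes. The median was −0.32 over the 24, against 0.01 over all genes tested. Introns held 2.07% to 2.57% of counts, so most of these values rest on few reads.

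The second run differed from the first far more than DEX from mock. In that comparison 23 of the 38 genes were higher in the second run and 8 lower, 31 in all, against 27.9% and 27.6% of all genes tested (edgeR adjusted p under 0.05). Of the 38, XTH33 (log2 difference 4.43), XTH15 (4.33), XTH23 (4.30) and EXLA3 (4.26) had the largest rises. These genes were seen in the second run only. Among genes seen in both runs, XTH22 was 605 and 629.7 CPM in the second run. It was 70.5 to 76.9 CPM in the 4 first-run libraries (log2 difference 3.08). XTH18 was 249.5 and 234 CPM, against 9.55 to 17.2 CPM (4.08). EXPA8 (−1.34), XTH5 (−1.11) and XTH32 (−0.97) were the lowest in the second run relative to the first. The date-like code, the lane, the root marker RNA and the TCP5 level all differed between runs. Their effects, and those of anything else that came with the run, cannot be told apart.

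Genes seen in the second run only have 1 library per group there, so no test could be made of them within that run. Levels in the rest of this paragraph are CPM on raw exon totals. EXPA7 and EXPA18, both expansins of root hairs, were at 3.76 and 9.72 CPM in DEX replicate 3, against 6.91 and 18.8 CPM in mock replicate 3. Over the 4 first-run libraries together EXPA7 had 0 counts and EXPA18 had 2. XTH14, a root XTH, was at 18.8 CPM in DEX replicate 3, against 32.9 CPM in mock replicate 3, and at 0 in all first-run libraries. Its counts were 659 in DEX replicate 3 and 1101 in mock replicate 3. No fold over the first run is given, since a count may not be a separate fragment. XTH20 was at 1.31 CPM (46 counts) in DEX replicate 3, against 11.9 CPM (398 counts) in mock replicate 3, the lowest ratio of the 10 at 0.110. XTH21 was at 1.48 CPM, against 5.68 CPM. XTH33 was at 4.30 CPM, against 9.81 CPM. XTH23 alone of the 10 was not lower, at 18.0 CPM in DEX replicate 3, against 17.2 CPM in mock replicate 3.

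In that pair of libraries 9 of the 10 genes were lower with DEX on raw exon totals, with a median ratio of 0.478. Of the 32 genes seen in both runs 25 were lower, with a median ratio of 0.788. On the scaled CPM used elsewhere, 49.9% of all genes tested were lower in that pair. The share on raw totals was not counted. Root markers moved in the same direction as the 10 genes. Of the 16 with a mean of at least 1 CPM in the second run 15 were lower in DEX replicate 3, with a median ratio of 0.415. CASP5 (0.114 against 2.45 CPM) and PLT2 (0.912 against 1.38 CPM) reached that mean only through mock replicate 3. The summed level of all 17 root markers had a ratio of 0.465. The 6 root hair genes of the marker list had ratios between 0.408 (PRP1) and 0.598 (COBL9), and EXPA7 and EXPA18 had 0.544 and 0.518. The summed shoot markers had a ratio of 0.930. The part of root content in these differences was not tested.

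**Figure D4:**
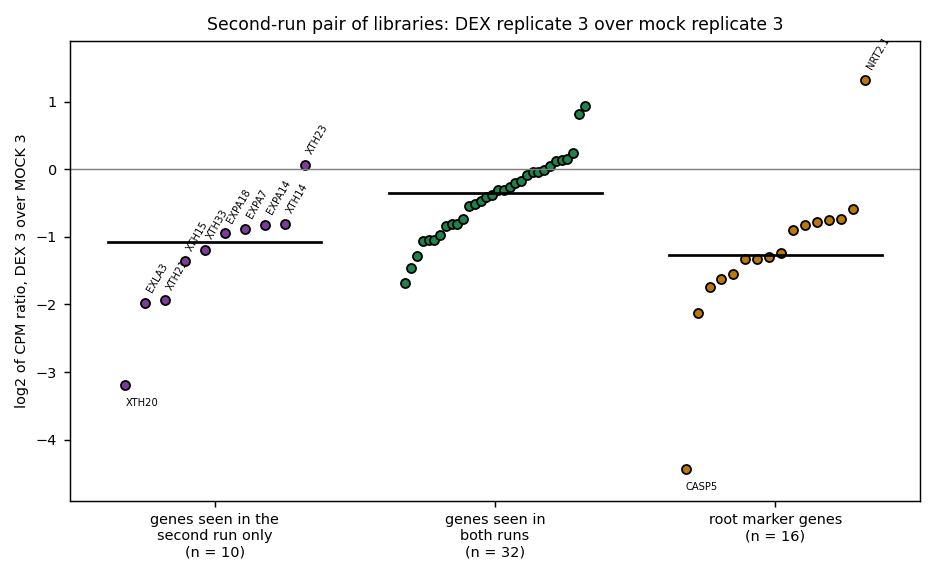
Log2 of the CPM ratio of DEX replicate 3 over mock replicate 3 for the 10 genes seen in the second run only, the 32 seen in both runs and 16 root marker genes. Each point is a gene and black bars are medians. The first set and the root markers both centre near −1, and XTH20 lies lowest among the expansin and XTH genes.

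Other genes of the same families and of xyloglucan and cellulose making were read for context. Of the remaining 24 expansin and XTH genes only 6 passed the low-count filter. The expansin-like gene EXLB1 fell (1 of 6, 16.7%) and 0 rose, against 3.58% and 1.09% of all genes tested. EXLB1 was at 1.06, 1.02 and 2.63 CPM with DEX, against 2.71, 2.89 and 8.18 CPM with mock (log2 fold change −1.50 ± 0.18, edgeR adjusted p = 0.00539). Of 16 wall partner genes 1 rose (6.25%) and 1 fell (6.25%), against 1.09% and 3.58% of all genes tested. With 1 gene each way, these shares do not set the list apart from all genes. XYL1, an alpha-xylosidase that trims xyloglucan, rose with 331, 287 and 264 CPM in DEX libraries, against 165, 167 and 225 CPM in mock libraries (0.68 ± 0.15, edgeR adjusted p = 0.0429). AHA2, a proton pump of the plasma membrane that acidifies the wall, fell to 215, 226 and 597 CPM with DEX, against 383, 391 and 734 CPM with mock (−0.64 ± 0.13, edgeR adjusted p = 0.0301). In introns the AHA2 change was −0.81 ± 0.15 on the log2 scale (edgeR adjusted p = 0.0112). With the replicate block neither XYL1 nor AHA2 passed in exons (edgeR adjusted p = 0.0860 and 0.0698), and EXLB1 did (0.0188). Genes for the xyloglucan backbone and side chains, CSLC4, XXT1, XXT2, XXT5, MUR3, XLT2 and FUT1, had log2 fold changes between −0.29 and 0.14, and none passed.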

How the data were processed

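Read counts of RNA sequencing libraries (TruSeq RNA kit, which does not mark strand) were analysed. Per the file headers, each deposited file lists for every gene an exon, an intron and a total count, and a length in bases. The submitters' processing notes name STAR and DESeq2, with no version. For the counter, the build and the annotation, the step is not given in the sources used here. Of exon counts from 1 to 20, 16.6% to 25.8% were odd, and whether both mates of a read pair were counted was not tested.

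Exon counts of all genes were tested by edgeR's robust quasi-likelihood F-test with run and treatment as terms (edgeR 4.0.16, R 4.3.3, TMM factors, low counts removed by filterByExpr per treatment at a minimum of 10 and a total of 15, Benjamini-Hochberg adjustment at 0.05). CPM are on TMM-scaled totals unless said otherwise. Intron counts were fitted alike. DESeq2 1.42.0 and limma-voom (limma 3.58.1) were alternatives. The fit was checked on simulated counts. All 45 identifiers were found in the RefSeq annotation of TAIR10.1, and 34 had the same exonic length there as in the files. Overlapping loci and 50-base stretches shared with other loci were counted. Shared stretches reached at most 7.82% of a gene (XTH21). Of the genes named with values, XTH18 shared 1.70% and EXLA3 0.630%, and XTH15, EXPA7, EXPA18 and EXPA2 overlap a locus on the other strand.

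Deviations from the group mean over genes correlated between same-numbered libraries at r = 0.689, 0.687 and 0.915 (replicates 1, 2 and 3), which meets the rule set for showing a replicate block. These values follow the run and not the number, since the mismatched first-run numbers correlated more (0.768 and 0.775), and inside the first run the numbers did not pair (r = −0.229). No pair of libraries matched within sampling noise (chi-square per degree of freedom from 28.5 to 508). The genes and lists were chosen with earlier results of these data known. Genes named with values were those that passed (DEX against mock, difference between runs, or introns), the 10 next by p, the 5 highest in mock per length and the 6 highest of those seen in the second run only. EXPA3, EXPA7, EXPA8, XTH5, XTH18 and XTH21, like the 3 genes seen in neither run, were named after their values were seen.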

Additional observations from a re-analysis of the deposited data

How the results depend on the processing

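Fits of DEX against mock under 17 alternatives gave 0 rises and 3 to 14 falls among these genes wherever run or replicate was a term or a single run was used, against 7 in the fit reported. Without a run term edgeR called 0 of the 38 (5 at an unadjusted p under 0.05), as it called 0 of 21934 genes (798 at an unadjusted p under 0.05). DESeq2 with run as a term called 14 of the 38. Leaving out 1 library gave 3 to 13 falls and a median log2 fold change between −0.64 and −0.30. There were 13 falls without DEX replicate 1, 3 without DEX replicate 2 and 4 without mock replicate 2. Calls over all genes moved alike, with 1132 of 23092, 304 of 23035 and 279 of 23063 passing in either direction in those fits. In the fit reported 1024 of 21934 passed. The low-count filter kept 44 of the 45 genes when a first-run library was left out. XTH20 is among the calls with no filter and when DEX replicate 1 or either first-run mock library was left out, but it has 0 counts in the first run, so its contrast is 1 library against 1 and is not read as a test. The replicate block changed no call of the 38 genes but those of XTH8 and XTH15. Wall partners that rose were 2 with DESeq2 and in the first run alone and 0 with the block or without a run term, and 0 to 2 when a library was left out. Those that fell were 3 with DESeq2 and 0 on library totals, with the block or without a run term, and 0 to 4 when a library was left out. Without a run term 0 other expansin or XTH genes fell. For the second run against the first, 5 to 9 genes were lower when a library was left out. For the difference between runs DESeq2 called 1 gene. On introns 4 genes fell with no filter and 0 to 2 when a library was left out. The sign of XTH22 turned to a log2 fold change of 0.0045 with DESeq2 size factors, 0.012 with upper quartile scaling, 0.044 on library totals, 0.0023 with no filter, 0.0042 with DESeq2, 0.00044 with limma-voom, 0.035 in the first run alone and 0.00040 on exon plus intron counts, and lay between −0.039 and 0.037 when a library was left out. Other scalings turned no other named gene. The cause of these differences was not tested. Seen in the second run only were 9 genes at 0.5 CPM and 11 at 2 CPM.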
